A study of Rattus norvegicus with 18 samples.

Results

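Wnt signalling in the lungs of rats exposed to a multiwalled carbon nanotube (MWCNT) was followed through 55 genes that encode Wnt ligands, their receptors, their secreted agonists and inhibitors, and the nuclear factors and feedback genes closest to the pathway. They were chosen by gene symbol from the 22081 genes in the deposited tables. The rule held no cutoff on expression values, but the genes were chosen with earlier results of these data known. They were all Wnt, Fzd, Sfrp, Dkk and Rspo genes with a plain number, Lgr4, Lgr5 and Lgr6, and Wif1, Lrp5, Lrp6, Axin2, Lef1, Tcf7, Nkd1, Nkd2, Notum, Porcn, Ror1 and Ror2. By role they comprised 20 genes for ligands and ligand processing, 13 receptors and co-receptors, 7 R-spondins and Lgr receptors, 10 secreted inhibitors, and 5 nuclear factors and feedback genes. RNA-seq had been performed on lung tissue of male F344 rats at Years 0.5, 1 and 2 of a test of repeated intratracheal instillation. The 3 control rats at each time point received the vehicle, saline with Tween 80, and the 3 MWCNT-treated rats at each time point received the nanotube MWNT-7 in that vehicle, at the higher dose of the test, by the same route and schedule from young adulthood on. The tissue was a piece of the accessory lobe without visible tumor nodules, so each library is a mixture of lung cell types, and it may hold focal lesions too small to see. No genetic change was introduced in any group.

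Wnt proteins are lipid-modified ligands that bind frizzled receptors, and with the co-receptors Lrp5 and Lrp6 they keep β-catenin from being degraded, so that it can act with TCF/LEF factors on target genes. R-spondins, acting through Lgr receptors, keep frizzled receptors on the cell surface, whereas Sfrp proteins and Wif1 bind Wnt ligands and most Dkk proteins bind Lrp5 and Lrp6. In the lung the pathway is known for its part in the development of the organ and in the renewal of alveolar type 2 cells from adult progenitors.

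Libraries held 13297643 to 17868851 counted reads in control rats and 14661589 to 21130757 in MWCNT-treated rats. Between 14315 and 14361 genes per time point passed the filter on low counts, among them 45, 44 and 46 of the 55 Wnt genes at Years 0.5, 1 and 2. A gene is said to have risen or fallen when edgeR's quasi-likelihood test gave a false discovery rate (FDR, adjusted over all genes tested) under 0.05, and it is called a differentially expressed gene (DEG) when the absolute log2 fold change was also over 1. Levels are given in TPM, a unit of transcript abundance scaled for gene length and library size, with the values of a group in the order of replicates 1, 2 and 3 and control before treated rats, and fold changes are log2 values of MWCNT-treated over control rats from the counts. The tissue carried the lung markers of its label: the summed level of 6 alveolar type 2 markers was 25453 to 27628 TPM in control rats and 43031 to 44199.6 TPM in treated rats at Year 0.5.

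Most Wnt genes that changed were lower in the MWCNT-treated lungs at each time point, and a handful were much higher. At Year 0.5, 21 of the 45 Wnt genes tested fell and 5 rose, beside 18.6% and 20.2% of all genes tested, and 1 fell and 4 rose as DEGs, beside 3.03% and 6.07% of all genes. At Year 1, 16 of 44 fell and 4 rose (all genes 19.6% and 21.6%), and 1 fell and 2 rose as DEGs (4.09% and 6.13%). At Year 2, 20 of 46 fell and 7 rose (all genes 24% and 25.2%), and 5 fell and 4 rose as DEGs (8.22% and 8.17%). The median log2 fold change of the Wnt genes tested was −0.34, −0.36 and −0.29 at Years 0.5, 1 and 2, whereas that of all genes tested was −0.02, 0.00 and −0.01. Of the 44 Wnt genes tested at all 3 time points, 13 fell at each of them (29.5%, beside 12.2% of all genes), namely Wnt3a, Wnt4, Wnt7a, Fzd1, Fzd4, Fzd8, Lrp5, Lgr4, Axin2, Nkd1, Nkd2, Lef1 and Tcf7, and 3 rose at each (6.82%, beside 14.8%), namely Wnt7b, Rspo3 and Sfrp5. Leaving out control replicate 1 at Year 1 reduced the number that fell at that time point to 10 of 45, beside 17.8% of all genes. In that fit 5 rose, beside 20% of all genes. The split depended on scaling: with library size alone 23, 25 and 25 Wnt genes fell and 5, 3 and 5 rose, beside 28.1%, 30.1% and 36.6% of all genes that fell and 15.2%, 15% and 17% that rose. Under limma on log2(TPM + 1), 26 fell and 4 rose at Year 2, beside 39.2% and 15.2% of all genes.

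**Figure D1:**
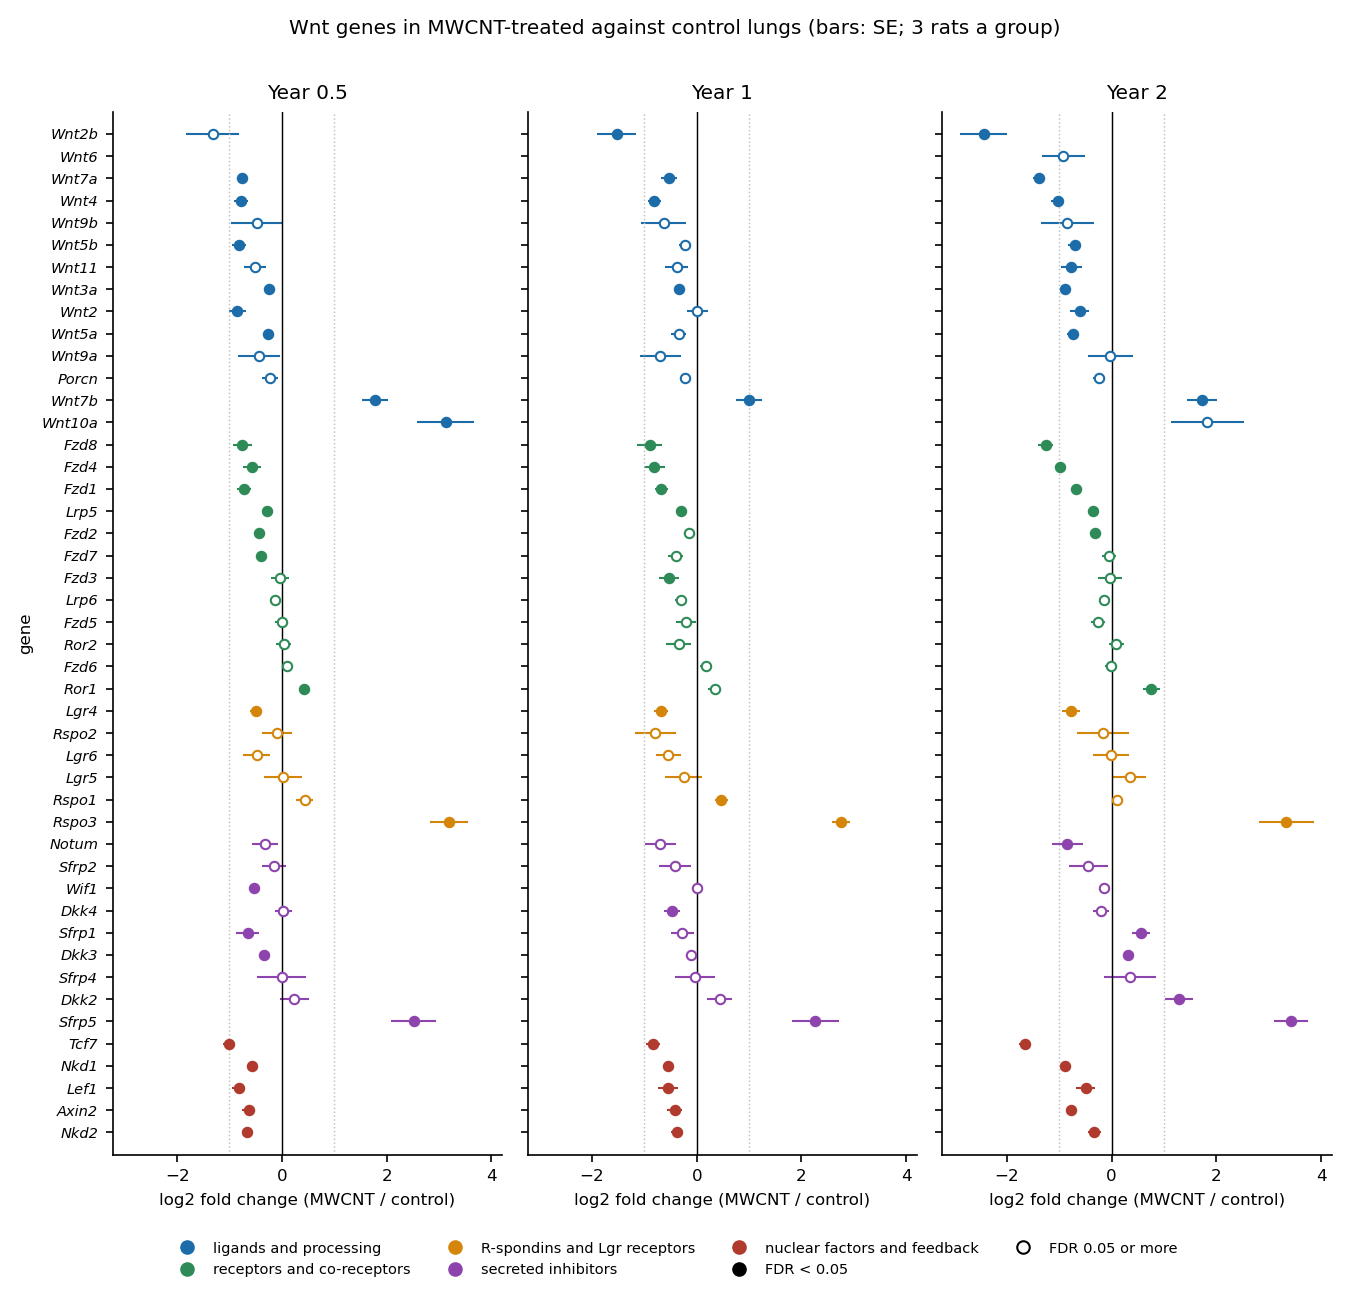
Log2 fold change of MWCNT-treated over control lungs (horizontal axis, bars show the SE, 3 rats a group) for each Wnt gene tested, by role, at Years 0.5, 1 and 2. Filled points have an FDR under 0.05, and dotted lines mark −1 and 1. Most filled points lie left of 0, and Rspo3, Sfrp5 and Wnt7b lie to the right at all 3 time points.

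The summed level of each family gives the same measurement on the TPM scale. The 19 Wnt ligand genes together reached 147 ± 1.11 TPM (SD, n = 3) in control rats and 95.2 ± 7.36 TPM in treated rats at Year 0.5, 135 ± 6.14 and 87.9 ± 10.2 TPM at Year 1, and 144 ± 4.82 and 70.9 ± 1.15 TPM at Year 2. The 9 frizzled genes summed to 302 ± 5.29 and 196 ± 9.66 TPM at Year 0.5 and to 249 ± 9.36 and 151 ± 3.38 TPM at Year 2. The rats of the treated groups were below those of the control groups in both families at every time point, whereas for the 10 secreted inhibitors the groups overlapped at Year 2, with 146 ± 14.0 TPM in control and 130.4 ± 14.2 TPM in treated rats. These sums overstate a fall relative to the median gene, because the median log2(TPM + 1) difference of all genes tested was itself −0.15, −0.21 and −0.20 at the 3 time points. The TPM ranges of treated and control rats did not overlap, with treated rats lower, for 25 of 53, 32 of 50 and 28 of 52 Wnt genes with any count, and this held for 34.5%, 39.8% and 39.1% of all genes with a count. Treated rats were higher without overlap for 7, 5 and 7 of them, beside 14.9%, 13.3% and 16.0% of all genes.

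**Figure D2:**
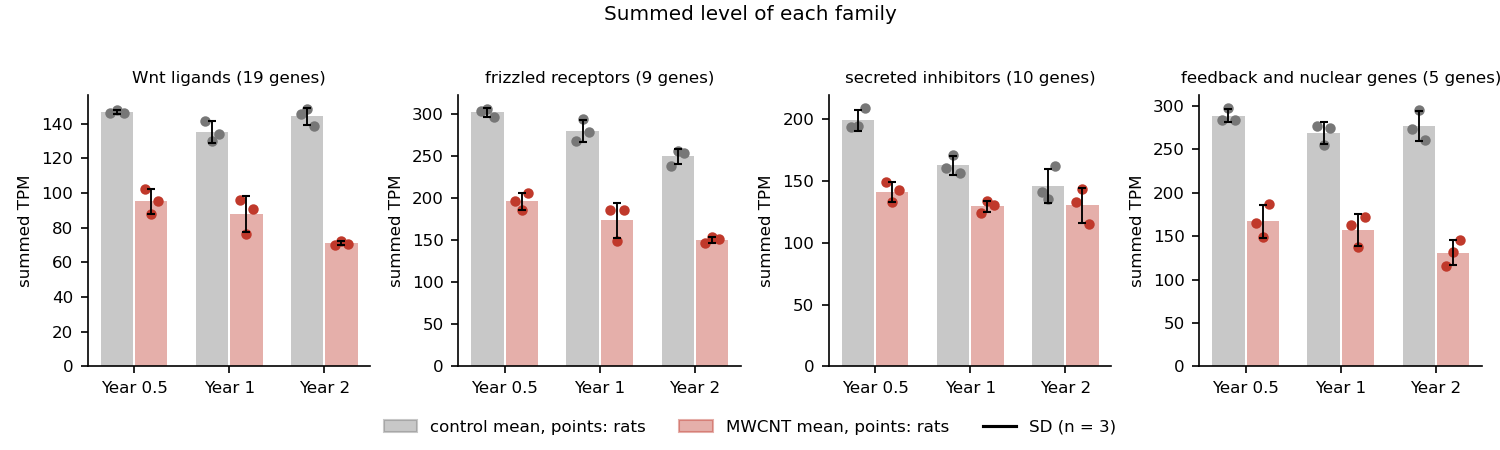
Summed TPM (vertical axis) of the Wnt ligands, frizzled receptors, secreted inhibitors, and feedback and nuclear genes in control (gray) and MWCNT-treated (red) rats. Bars show group means, points single rats and error bars the SD (n = 3). Treated rats lie below control rats in each panel and year, apart from the secreted inhibitors at Year 2, where the groups overlap.

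Markers of lung cell types moved with treatment in the same libraries. Their counts stand beside 18.6%, 19.6% and 24% of all genes tested that fell and 20.2%, 21.6% and 25.2% that rose. All 6 macrophage markers rose at each time point, and their summed level was 286 to 316 TPM in control and 699 to 807 TPM in treated rats at Year 0.5, 345 to 356 and 749.8 to 873 TPM at Year 1, and 278 to 326 and 942 to 1024 TPM at Year 2. Of 7 alveolar type 1 markers, 7, 6 and 7 fell, and their sum was 5982 to 6503 against 3298 to 4092 TPM at Year 0.5, 5848 to 6066 against 3246 to 3950.3 TPM at Year 1, and 5532 to 6112 against 2565 to 2878 TPM at Year 2. Of 6 alveolar type 2 markers, 6, 5 and 6 rose, and of 6 alveolar fibroblast markers, 5, 4 and 4 fell and 1, 0 and 1 rose. Of the markers of other types, 3, 4 and 4 of 4 ciliated, 3, 3 and 2 of 4 club, 5, 1 and 2 of 5 B cell, 3 of 5 adventitial fibroblast and 5 of 6 smooth muscle and myofibroblast markers fell, as did 5, 1 and 1 of 6 heart muscle markers. In these lists 1 adventitial fibroblast marker rose at Year 2 and 1 smooth muscle and myofibroblast marker at each time point, and of 5 mesothelial markers 0, 3 and 1 rose and 0, 0 and 2 fell. No marker on these lists was at 0 in all rats of any group. The part of cell composition in the changes of the Wnt genes was not tested, and in bulk tissue fewer cells of a type and less RNA per cell cannot be told apart.

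The 3 ligand genes with the highest levels, Wnt3a, Wnt7a and Wnt4, fell at each time point, and the ligands that rose, Wnt7b and Wnt10a, were low in control lungs. Of the 13, 12 and 14 ligand and processing genes tested, 6, 4 and 8 fell, beside 18.6%, 19.6% and 24% of all genes tested. At the same time points 2, 1 and 1 rose, beside 20.2%, 21.6% and 25.2%. Wnt3a (chr10:45598912-45638035 in Rnor_6.0, minus strand), a ligand that activates β-catenin signalling, had the highest mean level of the ligands over the 18 rats, 27.1 TPM. Its levels were 31.8, 32.9 and 32.1 TPM in the control rats and 24.0, 22.4 and 27.4 TPM in the treated rats at Year 0.5. At Year 1 they were 32.4, 32.4 and 32.8 TPM in control and 23.8, 18.4 and 23.5 TPM in treated rats, and at Year 2 34.0, 38.0 and 32.6 TPM against 15.6, 15.9 and 17.1 TPM. Every treated rat was below every control rat of its time point, and the gap was widest at Year 2. The log2 fold changes were −0.25 ± 0.08, −0.34 ± 0.09 and −0.89 ± 0.09 (SE), with an edgeR FDR of 0.0387, 0.0159 and 4.13e-05. The call at Year 0.5 was lost without control replicate 1, 2 or 3 or treated replicate 1 or 2 (highest edgeR FDR 0.164), and that at Year 1 without control replicate 3 (highest edgeR FDR 0.0546). With DESeq2 the call at Year 0.5 was lost too (adjusted p 0.0694). The alveolar type 1 markers given above fell in the same rats, and their part in the fall of Wnt3a, Wnt7a and Wnt4 was not tested.

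Wnt7a (chr4:122994425-123040609, minus strand), a ligand of the same subfamily as Wnt7b, had 26.4, 26.9 and 24.9 TPM in control and 15.2, 13.6 and 13.1 TPM in treated rats at Year 0.5. It had 26.8, 20.5 and 19.6 TPM against 15.3, 10.7 and 13.8 TPM at Year 1, and 29.1, 27.7 and 28.0 TPM against 8.59, 8.28 and 11.0 TPM at Year 2. The groups did not overlap at any time point, and the treated rats were lowest at Year 2, with log2 fold changes of −0.75 ± 0.08, −0.52 ± 0.15 and −1.39 ± 0.12 and an edgeR FDR of 0.000220, 0.0232 and 1.63e-05. Wnt7b (chr7:126420656-126465723, minus strand), which is known from the epithelium of the developing lung, went the other way. Its control rats had 1.36, 1.04 and 1.67 TPM and its treated rats 3.80, 5.31 and 3.45 TPM at Year 0.5, 1.60, 1.86 and 1.25 TPM against 2.09, 3.12 and 2.70 TPM at Year 1, and 1.75, 1.40 and 1.54 TPM against 5.07, 5.53 and 2.71 TPM at Year 2. Each treated rat was above each control rat, by log2 fold changes of 1.78 ± 0.25, 1.00 ± 0.24 and 1.72 ± 0.29 (edgeR FDR 0.000708, 0.0108 and 0.00103), and at Year 1 the log2 fold change was just under 1, the limit for a DEG. The call for Wnt7a at Year 1 was lost without control replicate 1 or treated replicate 2 or 3 (highest edgeR FDR 0.0658). Wnt7b made up 0.924% ± 0.220 (SD) of the summed TPM of the Wnt ligands in control rats and 4.46% ± 1.38 in treated rats at Year 0.5, and 1.08% ± 0.129 and 6.26% ± 2.12 at Year 2, a share that does not depend on how the libraries are scaled. The share rose by more than Wnt7b itself, because the summed TPM of the ligands was lower in treated rats (144 and 70.9 TPM at Year 2).

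**Figure D3:**
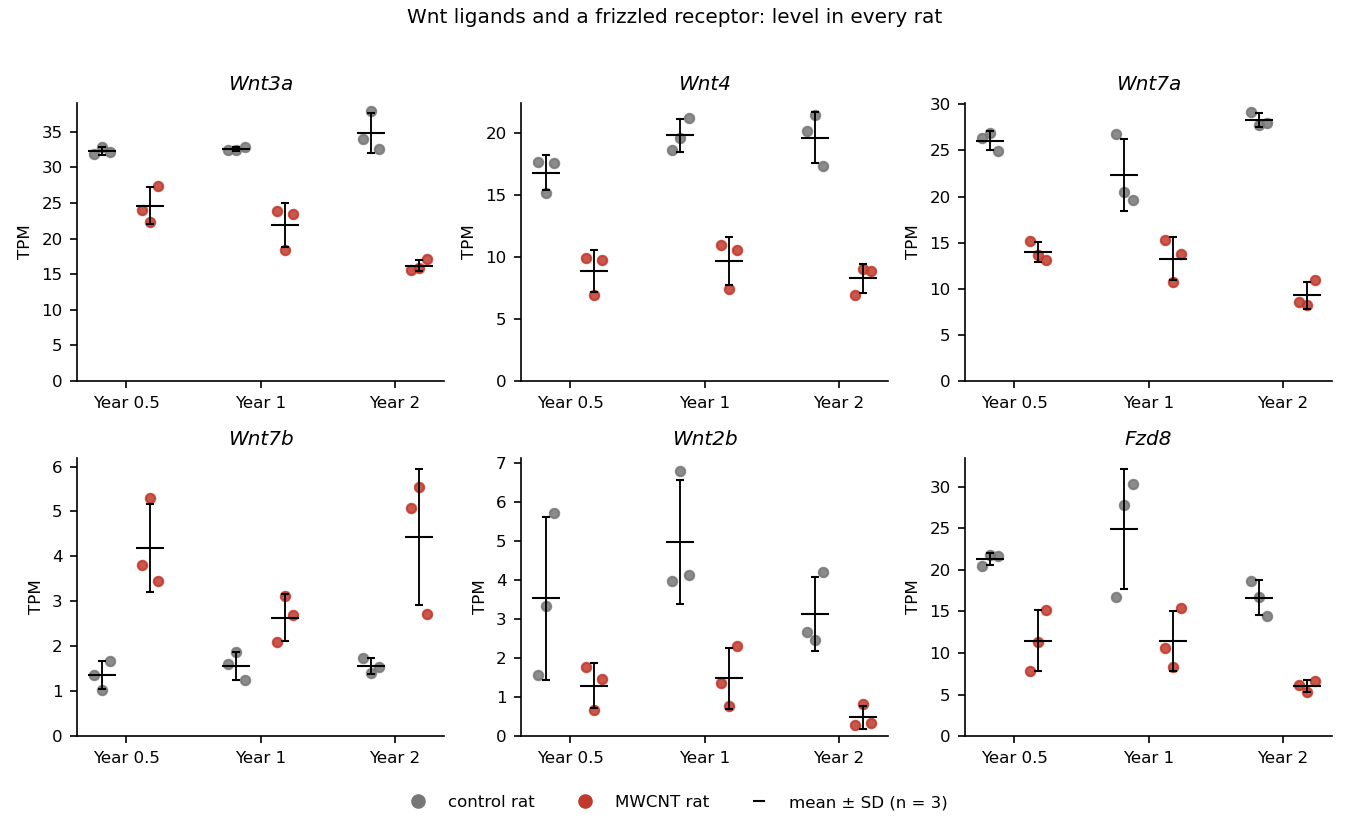
TPM (vertical axes, from 0) of Wnt3a, Wnt4, Wnt7a, Wnt7b, Wnt2b and Fzd8 in each control (gray) and MWCNT-treated (red) rat by year, with the group mean and SD in black (n = 3). Treated rats lie below control rats for Wnt3a, Wnt4, Wnt7a and Fzd8 at each year and above them for Wnt7b, and Wnt2b overlaps at Year 0.5.

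Wnt4 (chr5:155649217-155672579, plus strand), a ligand used by both the β-catenin and the β-catenin-independent branches, was at 17.7, 15.2 and 17.6 TPM in control and 9.96, 6.94 and 9.75 TPM in treated rats at Year 0.5. At Year 1 its levels were 18.6, 19.6 and 21.2 TPM against 11.0, 7.44 and 10.6 TPM, and at Year 2 they were 20.1, 21.4 and 17.3 TPM against 6.93, 9.07 and 8.88 TPM. The groups were apart at each time point, with log2 fold changes of −0.78 ± 0.13, −0.81 ± 0.12 and −1.03 ± 0.12 (edgeR FDR 0.00159, 0.000876 and 0.000107). Wnt2b (chr2:207440886-207455258, minus strand), which acts with Wnt2 in the specification of the lung, had 1.56, 3.33 and 5.72 TPM in control and 1.76, 0.667 and 1.46 TPM in treated rats at Year 0.5. It had 3.99, 6.81 and 4.14 TPM against 1.37, 0.766 and 2.31 TPM at Year 1, and 2.68, 2.47 and 4.21 TPM against 0.285, 0.813 and 0.338 TPM at Year 2. The groups overlapped at Year 0.5, when the control rats ranged from 1.56 to 5.72 TPM, and were apart later, with log2 fold changes of −1.32 ± 0.51, −1.53 ± 0.37 and −2.44 ± 0.45 and an edgeR FDR of 0.0679, 0.0111 and 0.00175. At Year 0.5 Wnt2b passed the test without control replicate 1 (−1.69, edgeR FDR 0.0267) and with DESeq2 (adjusted p 0.0342). With single rats left out the value ran from −1.69 to −0.79, with an edgeR FDR of up to 0.249. Under 7 of 9 other settings Wnt2b did not pass at Year 0.5. Wnt2b lies inside the span of St7l on the opposite strand, and without a stated strand setting reads of the pair cannot be told apart; St7l itself had log2 fold changes of −0.09, −0.21 and −0.04, with an edgeR FDR of 0.533, 0.152 and 0.772.

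Wnt10a (chr9:82053581-82066047, plus strand), known from skin, hair and tooth development, was nearly absent from control lungs. At Year 0.5 it had 0.146, 0.175 and 0.219 TPM in control and 1.88, 1.81 and 0.650 TPM in treated rats, and the treated rats were higher by a log2 fold change of 3.12 ± 0.54 (edgeR FDR 0.00203). At Year 1 its levels were 0.0586, 0.218 and 0.183 TPM against 1.08, 1.36 and 0.441 TPM, with the treated rats again higher but with too few counts to pass the filter (2.83, edgeR FDR 0.00576, without a filter). At Year 2 they were 0.386, 0.108 and 1.01 TPM against 2.67, 0.901 and 0.973 TPM, the groups overlapped, and the log2 fold change of 1.83 ± 0.70 did not pass the test (edgeR FDR 0.0549). It passed without control replicate 3 (2.79, edgeR FDR 0.0183), in 1 model of all 18 rats (edgeR FDR 0.0247) and with DESeq2 (adjusted p 0.0215), and without treated replicate 1 the value was 1.11 (edgeR FDR 0.242). Its neighbour Wnt6 (chr9:82033543-82047166) had 0.924, 1.36 and 0.925 TPM in control and 0.615, 0.485 and 0.350 TPM in treated rats at Year 2 (log2 fold change −0.92 ± 0.41, edgeR FDR 0.0898). Of the other ligands, chosen here after their values were seen, Wnt5a and Wnt5b, which signal through Ror receptors and cell polarity, fell at both Year 0.5 and Year 2, by 0.26 and 0.74 for Wnt5a and by 0.82 and 0.71 for Wnt5b on the log2 scale. Wnt2 fell by 0.85 and 0.61 at Years 0.5 and 2, had a log2 fold change of 0.01 at Year 1 (edgeR FDR 0.959), and Wnt11 fell at Year 2 by 0.77. Wnt9a and Wnt9b did not pass the test at any time point, nor did Porcn, the enzyme that attaches the lipid to Wnt proteins, with log2 fold changes of −0.23, −0.22 and −0.24. The remaining ligands were too low for the test at any time point: Wnt3 and Wnt10b had 0 to 6 reads and 0 to 4 reads per rat, Wnt8a, Wnt8b and Wnt16 had 0 to 2 reads, and Wnt1 had none in any of the 18 rats, which allows up to 3 reads per library by counting error alone.

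Receptor genes that passed the test mostly fell. Of the 12 tested at each time point, 6, 5 and 5 fell, beside 18.6%, 19.6% and 24% of all genes tested. Of the same 12 receptor genes, 1, 0 and 1 rose, beside 20.2%, 21.6% and 25.2%. The co-receptor Lrp5 had the highest mean level of the group, 66.0 TPM over the 18 rats (chr1:218816841-218920094, minus strand). Its levels were 80.4, 80.6 and 82.9 TPM in control and 62.6, 57.5 and 62.3 TPM in treated rats at Year 0.5. They were 82.1, 81.0 and 77.5 TPM against 58.8, 46.0 and 60.8 TPM at Year 1, and 71.1, 74.7 and 66.7 TPM against 44.3, 47.1 and 51.7 TPM at Year 2. No treated rat reached the level of a control rat, although the log2 fold changes were small, −0.28 ± 0.06, −0.31 ± 0.09 and −0.36 ± 0.08 (edgeR FDR 0.00457, 0.0224 and 0.00447). The call at Year 1 was lost without control replicate 1 or 2 (highest edgeR FDR 0.0658). Its paralogue Lrp6 did not pass the test, with log2 fold changes of −0.13, −0.30 and −0.14 and an edgeR FDR of 0.175, 0.0645 and 0.166.

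Fzd8 (chr17:62262129-62265113, plus strand), a frizzled receptor that binds several Wnt ligands, was the receptor that became a DEG. At Year 0.5 it had 20.5, 21.8 and 21.7 TPM in control and 7.89, 11.3 and 15.2 TPM in treated rats. At Year 1 the levels were 16.7, 27.8 and 30.3 TPM against 10.6, 8.27 and 15.4 TPM, and at Year 2 18.7, 16.8 and 14.5 TPM against 6.14, 5.28 and 6.63 TPM. The groups did not overlap at any time point, though at Year 1 control replicate 1 was close to the highest treated rat, and the log2 fold changes were −0.75 ± 0.19, −0.90 ± 0.24 and −1.26 ± 0.15 (edgeR FDR 0.0129, 0.0158 and 0.000126). The call for Fzd8 at Year 1 was lost without control replicate 2 or 3 or treated replicate 2 (highest edgeR FDR 0.0623). The next receptors were chosen after their values were seen. Fzd4, which also serves norrin and is known from endothelium, fell by 0.57, 0.81 and 0.98 on the log2 scale (edgeR FDR 0.0283, 0.0110 and 3.22e-05), and its levels in treated rats at Year 2 were 22.5, 19.9 and 23.6 TPM against 44.0, 55.1 and 52.4 TPM in control rats. All 5 endothelial markers in the tables fell at each time point too, with a summed level of 2515 to 2638 TPM in control and 1012 to 1444 TPM in treated rats at Year 0.5, 2283 to 2431 and 901 to 1284 TPM at Year 1, and 2046 to 2466 and 629 to 908 TPM at Year 2, and their part in the result for Fzd4 was not tested. The call for Fzd4 at Year 0.5 was lost without control replicate 1 or 3 or treated replicate 1 or 2 (highest edgeR FDR 0.0965). Fzd1 fell by 0.73, 0.67 and 0.69, and Fzd2 fell at Years 0.5 and 2 by 0.44 and 0.32, Fzd7 at Year 0.5 by 0.40 and Fzd3 at Year 1 by 0.53. Ror1, a receptor kinase for Wnt5a, rose at Years 0.5 and 2 by 0.42 and 0.76 (edgeR FDR 0.00939 and 0.00436), whereas its paralogue Ror2 had log2 fold changes of 0.04, −0.35 and 0.09, none past the test. Fzd5 and Fzd6 did not pass the test at any time point either, with log2 fold changes from −0.26 to 0.18, and Fzd9, with 1 to 10 reads per rat, was too low for the test.

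Rspo3 showed the largest fold change of any Wnt gene tested at Year 0.5 and Year 1. Of 6 R-spondin and Lgr genes tested, 1, 2 and 1 rose, beside 20.2%, 21.6% and 25.2% of all genes tested. At each time point 1 fell, beside 18.6%, 19.6% and 24%. Rspo3 (chr1:30681681-30766860, plus strand), a secreted agonist that acts through Lgr receptors, had 0.665, 0.703 and 1.98 TPM in control and 10.8, 9.53 and 7.25 TPM in treated rats at Year 0.5. At Year 1 the levels were 1.46, 1.75 and 1.69 TPM against 7.73, 9.70 and 10.6 TPM, and at Year 2 they were 0.398, 0.216 and 1.90 TPM against 6.38, 6.97 and 8.19 TPM. The lowest treated rat was at over 3 times the level of the highest control rat at each time point, even though control replicate 3 stood above the other two at Year 0.5 and Year 2. The log2 fold changes were 3.19 ± 0.36, 2.75 ± 0.18 and 3.34 ± 0.53, with an edgeR FDR of 0.000241, 9.56e-06 and 0.000789. Rspo4 (chr3:147358858-147389698, plus strand) had too few counts to pass the filter. It had 0, 0.210 and 0.590 TPM in control and 1.64, 1.06 and 0.358 TPM in treated rats at Year 0.5. None of its reads was found in the control rats at Year 1 and Year 2, when the treated rats had 6, 11 and 9 reads (1.06, 1.67 and 1.58 TPM) at Year 1 and 16, 21 and 10 reads (2.95, 3.39 and 1.75 TPM) at Year 2. With a floor of 3 reads per control library, Rspo4 was at least 2.72-fold higher in treated rats at Year 1 and at least 4.61-fold higher at Year 2.

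**Figure D4:**
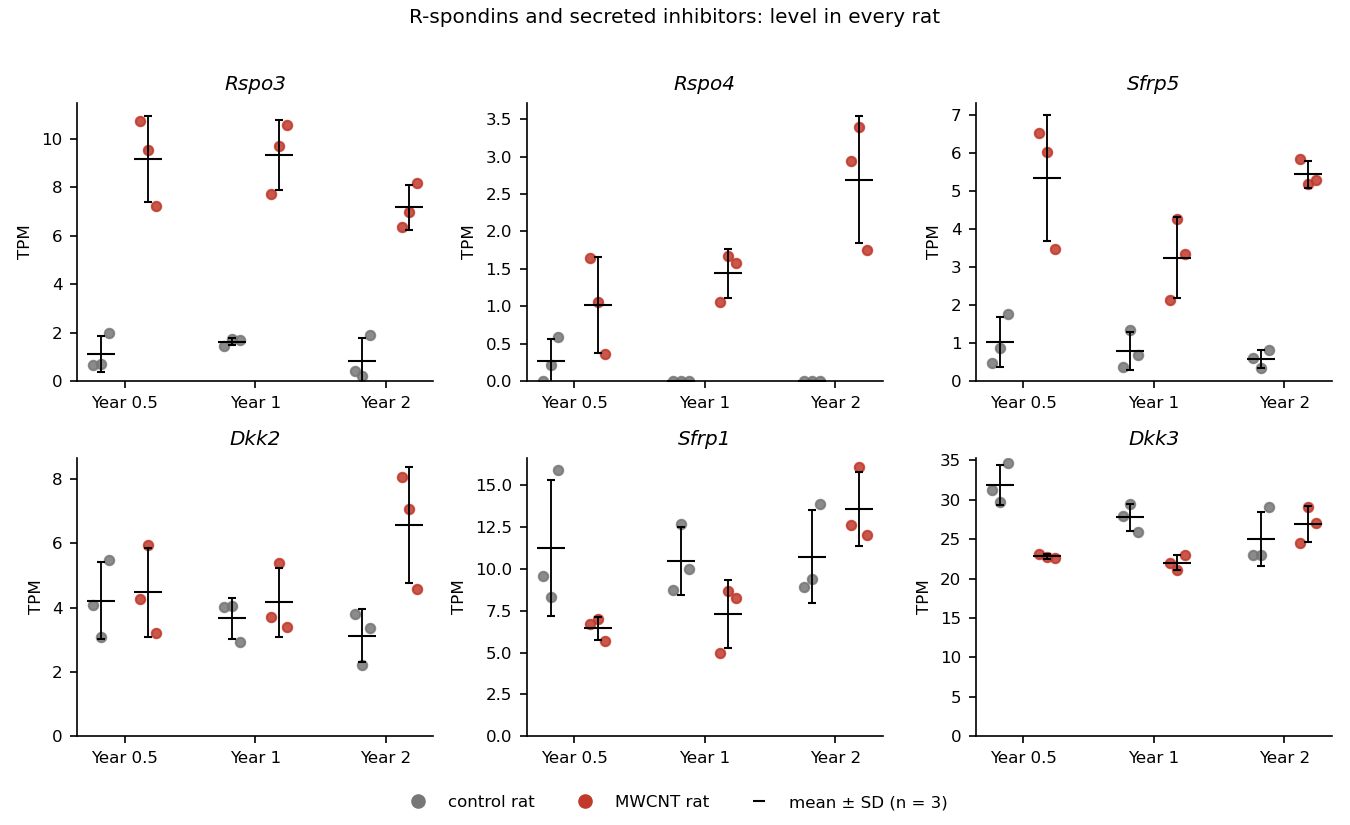
TPM (vertical axes, from 0) of Rspo3, Rspo4, Sfrp5, Dkk2, Sfrp1 and Dkk3 in each control (gray) and MWCNT-treated (red) rat by year, with the group mean and SD in black (n = 3, bars cut at 0). Rspo3 and Sfrp5 are higher in every treated rat, and Sfrp1 and Dkk3 are lower in treated rats at Year 0.5 and have group means above the control means at Year 2.

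Rspo1 had the highest level of the group, 37.1 TPM on average over the 18 rats (chr5:142986526-143007831, plus strand). Its control rats had 21.6, 34.8 and 32.6 TPM and its treated rats 36.6, 35.4 and 36.4 TPM at Year 0.5, 36.4, 27.5 and 33.2 TPM against 41.5, 36.9 and 35.6 TPM at Year 1, and 45.9, 42.9 and 45.3 TPM against 38.3, 45.0 and 41.5 TPM at Year 2. The groups were apart at Year 0.5, with 1 control rat far below the others, and overlapped at Years 1 and 2. Rspo1 passed the test at Year 1, with log2 fold changes of 0.43 ± 0.16, 0.47 ± 0.12 and 0.11 ± 0.08 (edgeR FDR 0.0544, 0.0155 and 0.308). Under scaling by library size alone the call at Year 1 was lost (log2 fold change 0.33, edgeR FDR 0.0536) and the value at Year 2 was −0.06 (edgeR FDR 0.595). Rspo1 also passed at Year 0.5 without control replicate 2 (0.57, edgeR FDR 0.0267) and with DESeq2 (adjusted p 0.0286). With single rats left out the value at Year 0.5 ran from 0.24 to 0.57, with an edgeR FDR of up to 0.114. Under 5 of 9 other settings Rspo1 did not pass at Year 0.5. Lgr4, a receptor of the R-spondins and described here after its values were seen, fell by 0.49, 0.68 and 0.77 (edgeR FDR 0.00990, 0.00283 and 0.00544), from 9.34 ± 1.81 TPM (SD, n = 3) in control to 4.71 ± 0.718 TPM in treated rats at Year 2. Lgr5, Lgr6 and Rspo2 did not pass the test at any time point.

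Secreted inhibitors moved in both directions, as did all genes tested. Of the 9 inhibitors tested, 3, 1 and 1 fell, beside 18.6%, 19.6% and 24% of all genes. Of the same 9, 1, 1 and 4 rose, beside 20.2%, 21.6% and 25.2%. Sfrp5 (chr1:261442108-261446570, minus strand), which binds Wnt ligands through a frizzled-like domain, had 0.483, 0.869 and 1.77 TPM in control and 6.55, 6.04 and 3.47 TPM in treated rats at Year 0.5. The levels were 0.363, 1.35 and 0.681 TPM against 2.13, 4.26 and 3.34 TPM at Year 1, and 0.614, 0.334 and 0.810 TPM against 5.85, 5.19 and 5.31 TPM at Year 2. All treated rats were above all control rats, with log2 fold changes of 2.52 ± 0.43, 2.27 ± 0.45 and 3.42 ± 0.32 and an edgeR FDR of 0.00198, 0.00397 and 3.14e-05. Dkk2 (chr2:237148941-237241350, plus strand), a ligand of Lrp5 and Lrp6, had 4.09, 3.10 and 5.48 TPM against 4.26, 5.95 and 3.21 TPM at Year 0.5, 4.01, 4.07 and 2.94 TPM against 3.71, 5.39 and 3.39 TPM at Year 1, and 3.81, 2.22 and 3.36 TPM against 8.06, 7.07 and 4.59 TPM at Year 2 in control and treated rats. The groups were apart at Year 2 alone, where Dkk2 rose by 1.29 ± 0.27 (edgeR FDR 0.00375), and its log2 fold changes at Year 0.5 and Year 1 were 0.24 and 0.44, neither past the test. The difference between the time points did not pass the test of interaction (1.05 ± 0.42 for Year 2 against Year 0.5, edgeR FDR 0.265).

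Wif1 (chr7:63094911-63165159, plus strand), a secreted inhibitor that binds Wnt ligands, was the most abundant inhibitor, with 75.5 TPM on average over the 18 rats. Its control rats had 109, 125 and 103 TPM and its treated rats 75.5, 60.8 and 74.5 TPM at Year 0.5. At Year 1 the levels were 82.9, 77.6 and 75.2 TPM against 73.6, 61.7 and 66.9 TPM, and at Year 2 they were 63.8, 70.6 and 75.8 TPM against 52.4, 59.0 and 51.1 TPM. Every treated rat was below every control rat on the TPM scale, and the control rats at Year 0.5 stood above those of the later time points. Relative to the other genes in the counts, Wif1 fell at Year 0.5 alone, with log2 fold changes of −0.54 ± 0.10, 0.01 ± 0.08 and −0.15 ± 0.08 and an edgeR FDR of 0.00283, 0.917 and 0.135. The sign at Year 1 depended on the scaling (−0.12 with library size alone, edgeR FDR 0.243), as did the call at Year 2: the log2 fold change was −0.32 with library size alone (edgeR FDR 0.00947) and −0.36 in limma on log2(TPM + 1), whose adjusted p was 0.00864. The effect at Year 2 was not shown to differ from that at Year 0.5 (interaction 0.39 ± 0.13, edgeR FDR 0.161). The study reported Wif1 as downregulated at each time point by quantitative PCR. That assay was scaled to the gene Gapdh and used a larger set of rats that included these, so its measure and scaling differ from those here.

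Dkk3 (chr1:176940693-176983045, minus strand), a divergent member of the Dkk family, fell at Year 0.5 and rose at Year 2, where the call depended on the scaling. At Year 0.5 it had 31.3, 29.8 and 34.7 TPM in control and 23.1, 22.7 and 22.6 TPM in treated rats, and it fell by 0.34 on the log2 scale (SE 0.07, edgeR FDR 0.00523). At Year 1 the levels were 27.9, 29.5 and 25.9 TPM against 21.9, 21.1 and 23.0 TPM with a log2 fold change of −0.10 ± 0.08 (edgeR FDR 0.314). At Year 2 they were 23.0, 23.1 and 29.0 TPM against 24.5, 29.0 and 27.1 TPM, the groups overlapped on the TPM scale, and Dkk3 rose by 0.32 ± 0.10 (edgeR FDR 0.0220). That rise was not past the test with library size alone (0.15, edgeR FDR 0.247) or with upper quartile scaling (0.27, edgeR FDR 0.0504). In limma on log2(TPM + 1) and log2(TPM + 0.1) its value was 0.10 and 0.11, with an adjusted p of 0.467 and 0.465. With library size alone Dkk3 fell at Year 1 by 0.23 (edgeR FDR 0.0304). Sfrp1, described after its values were seen, had a like course: 9.57, 8.33 and 15.9 TPM in control and 6.69, 7.01 and 5.69 TPM in treated rats at Year 0.5, and 8.90, 9.42 and 13.9 TPM against 12.6, 16.1 and 12.0 TPM at Year 2. Its treated rats were all lower at Year 0.5, and at Year 2 the groups overlapped through 1 control rat, with log2 fold changes of −0.65 ± 0.22, −0.27 ± 0.22 and 0.56 ± 0.17 (edgeR FDR 0.0454, 0.350 and 0.0229) and an interaction of 1.22 ± 0.35 for Year 2 against Year 0.5 that did not pass the test (edgeR FDR 0.0955). The call for Sfrp1 at Year 0.5 was lost without control replicate 1 or 3 or treated replicate 1, 2 or 3 (highest edgeR FDR 0.134), and that at Year 2 without control replicate 1 or 2 or treated replicate 2 (highest edgeR FDR 0.0992). The rise of Sfrp1 at Year 2 was also lost with library size alone (0.39, edgeR FDR 0.0909), in 1 model of all 18 rats (edgeR FDR 0.0585) and in limma on log2(TPM + 1), whose adjusted p was 0.160. That for Dkk3 at Year 2 was lost without control replicate 1 or 2 or treated replicate 2 or 3 (highest edgeR FDR 0.0811). Dkk4 fell at Year 1 by 0.47, and Notum, which removes the lipid from Wnt proteins, fell at Year 2 by 0.85 (edgeR FDR 0.0359 and 0.0385). Sfrp2 and Sfrp4 passed no test, and Dkk1 had 6 reads in all 18 rats together.

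All 5 nuclear factors and feedback genes fell at all 3 time points, beside 18.6%, 19.6% and 24% of all genes tested. The call for Lef1 at Year 2 lay at the threshold. Axin2, a scaffold of the complex that degrades β-catenin, and Nkd1 and Nkd2, which bind Dishevelled, are restrainers that β-catenin signalling itself is known to induce, and Lef1 and Tcf7 are DNA-binding partners of β-catenin. Because all 5 fell at each time point, the 250 bases before each RefSeq start (GRCr8, written 5′ to 3′ on the strand of the gene) are shown with every match to the TCF/LEF core letters CTTTGA, or TCAAAG for the other strand, in capitals. They are from chr10:94398535-94398784 (plus strand), chr19:34722847-34723096 (minus), chr2:222340463-222340712 (plus), chr1:31272282-31272531 (plus) and chr10:36954280-36954529 (minus).
Axin2: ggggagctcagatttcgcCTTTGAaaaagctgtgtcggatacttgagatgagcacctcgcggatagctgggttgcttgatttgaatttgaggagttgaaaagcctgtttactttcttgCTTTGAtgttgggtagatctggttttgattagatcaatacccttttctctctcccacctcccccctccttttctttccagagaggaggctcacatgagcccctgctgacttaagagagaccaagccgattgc
Nkd1: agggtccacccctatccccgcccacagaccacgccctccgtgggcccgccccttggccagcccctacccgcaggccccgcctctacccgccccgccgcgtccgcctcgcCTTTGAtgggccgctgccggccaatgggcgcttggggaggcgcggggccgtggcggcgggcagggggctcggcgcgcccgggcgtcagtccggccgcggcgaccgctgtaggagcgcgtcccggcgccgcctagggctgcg
Lef1: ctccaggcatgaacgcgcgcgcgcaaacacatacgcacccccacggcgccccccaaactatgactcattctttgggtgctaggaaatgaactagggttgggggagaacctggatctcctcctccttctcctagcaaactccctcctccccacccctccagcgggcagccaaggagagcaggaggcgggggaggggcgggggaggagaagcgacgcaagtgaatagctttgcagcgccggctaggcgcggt
Nkd2: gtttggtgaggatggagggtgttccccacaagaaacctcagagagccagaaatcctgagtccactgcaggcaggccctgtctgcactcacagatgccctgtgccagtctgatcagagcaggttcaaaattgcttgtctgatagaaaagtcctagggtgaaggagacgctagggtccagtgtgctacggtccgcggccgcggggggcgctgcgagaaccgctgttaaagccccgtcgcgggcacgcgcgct
Tcf7: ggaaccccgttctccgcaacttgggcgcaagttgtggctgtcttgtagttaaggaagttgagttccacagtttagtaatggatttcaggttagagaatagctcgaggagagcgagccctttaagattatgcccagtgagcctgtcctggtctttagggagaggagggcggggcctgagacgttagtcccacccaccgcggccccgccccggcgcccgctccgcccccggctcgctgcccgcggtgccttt
Axin2 holds 2 matches, which begin 232 and 132 bases before the start, and Nkd1 holds 1, which begins 141 bases before it, whereas Lef1, Nkd2 and Tcf7 hold none in this window. The letters occur in 13.9% of the 33469 RefSeq promoters of the same length, in 5 of the 38 Wnt genes with a promoter entry and in 2 of these 5 genes. A match is a description of the letters and not a bound site, and the letters were chosen with the behaviour of the genes known.

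Nkd1 (chr19:19436333-19509087 in Rnor_6.0, minus strand) was the most abundant of all 55 Wnt genes, with 129 TPM on average over the 18 rats. Its levels were 158, 166 and 177 TPM in control and 98.7, 89.3 and 117 TPM in treated rats at Year 0.5. They were 161, 162 and 176 TPM against 97.9, 81.8 and 112 TPM at Year 1, and 165, 173 and 152 TPM against 68.7, 75.4 and 85.3 TPM at Year 2. The control rats stayed within a narrow range through the experiment and all treated rats were far below them, with log2 fold changes of −0.57 ± 0.09, −0.54 ± 0.09 and −0.88 ± 0.09 (edgeR FDR 0.00127, 0.00202 and 5.17e-05). Axin2, named here after its values were seen, had 58.7, 61.0 and 44.6 TPM in control and 32.8, 28.2 and 34.8 TPM in treated rats at Year 0.5, and 51.7, 58.3 and 49.8 TPM against 23.7, 27.1 and 29.9 TPM at Year 2. It fell by 0.64, 0.42 and 0.77 on the log2 scale (edgeR FDR 0.00370, 0.0391 and 0.000120), and Nkd2 by 0.67, 0.38 and 0.33 (edgeR FDR 0.000302, 0.0266 and 0.0412). The call at Year 1 was lost for Axin2 without control replicate 1 or 3 or treated replicate 2 or 3 (highest edgeR FDR 0.113) and for Nkd2 without control replicate 1 or treated replicate 2 or 3 (highest edgeR FDR 0.0731), and that for Nkd2 at Year 2 without control replicate 1, 2 or 3 or treated replicate 1 (highest edgeR FDR 0.133).

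**Figure D5:**
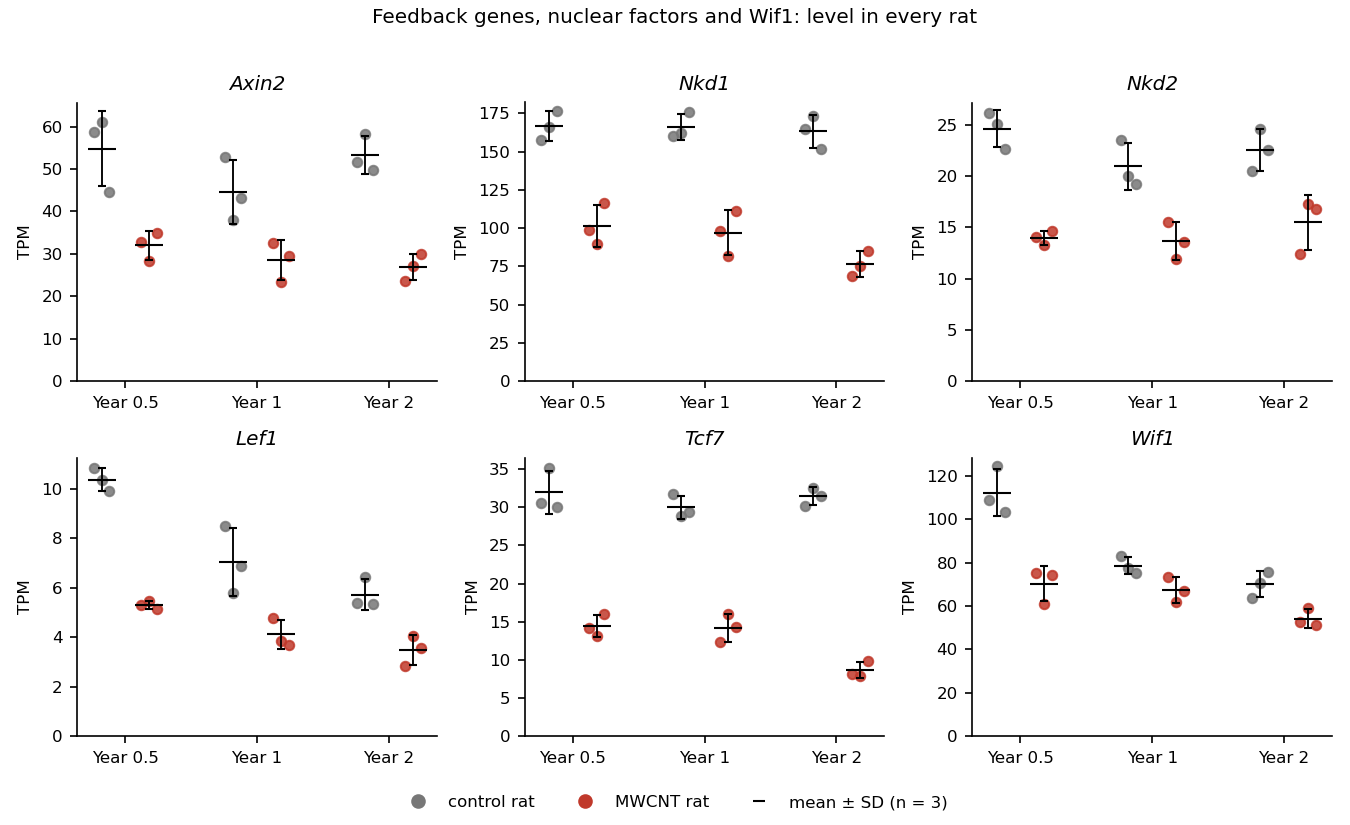
TPM (vertical axes, from 0) of Axin2, Nkd1, Nkd2, Lef1, Tcf7 and Wif1 in each control (gray) and MWCNT-treated (red) rat by year, with the group mean and SD in black (n = 3). Treated rats lie below the control rats of the same year in every panel, and the control rats of Lef1 and Wif1 are highest at Year 0.5.

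Tcf7 (chr10:37617279-37645802, minus strand) had the largest fall of the 5 at each time point. Its control rats had 30.6, 35.1 and 30.1 TPM and its treated rats 14.1, 13.2 and 16.0 TPM at Year 0.5. The levels were 31.8, 28.8 and 29.4 TPM against 12.4, 16.0 and 14.3 TPM at Year 1, and 30.2, 32.6 and 31.5 TPM against 8.16, 7.87 and 9.83 TPM at Year 2. The control groups had a log2 difference of −0.02 (edgeR FDR 0.949) between Year 2 and Year 0.5, whereas the treated rats fell by 0.65 (edgeR FDR 0.00249), and the log2 fold changes were −1.01 ± 0.11, −0.83 ± 0.14 and −1.65 ± 0.12 (edgeR FDR 0.000196, 0.00145 and 7.27e-06). Lef1 had 10.9, 10.3 and 9.91 TPM in control and 5.29, 5.47 and 5.16 TPM in treated rats at Year 0.5, and 5.37, 6.44 and 5.34 TPM against 2.85, 4.05 and 3.58 TPM at Year 2. The groups were apart at both time points, with log2 fold changes of −0.82 ± 0.12, −0.54 ± 0.19 and −0.50 ± 0.18 (edgeR FDR 0.000978, 0.0471 and 0.0499), the last of which lies at the threshold. The call for Lef1 was lost at Year 1 without control replicate 1 or 3 or treated replicate 2 or 3 (highest edgeR FDR 0.145) and at Year 2 without control replicate 1, 2 or 3 or treated replicate 1 or 3 (highest edgeR FDR 0.161). At Year 2 it was also lost with DESeq2 (adjusted p 0.0936) and without a filter on low counts (edgeR FDR 0.0542). Tcf7 and Lef1 are also known from T cells. Beside 18.6%, 19.6% and 24% of all genes tested, 3, 0 and 5 of the 5 T cell markers fell. Their summed level was 74.2 to 99.4 TPM in control and 51.5 to 58.8 TPM in treated rats at Year 0.5, 91.6 to 107 and 43.2 to 78.8 TPM at Year 1, and 101 to 124 and 33.5 to 50.4 TPM at Year 2, and its part in the results for Tcf7 and Lef1 was not tested.

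Whether the effect of treatment differed between time points was tested in one model of all 18 rats. Over all time points the test called 2 of 46 Wnt genes (4.35%, beside 0.667% of all genes), Wnt3a and Dkk3. Between Year 2 and Year 0.5 it called Wnt3a and Dkk3 (all genes 1.31%): the effect on Wnt3a was lower by 0.63 on the log2 scale (SE 0.12, edgeR FDR 0.0161) and that on Dkk3 higher by 0.66 (SE 0.12, edgeR FDR 0.0110). Between Year 2 and Year 1 it called Tcf7 alone (all genes 0.478%), with a difference of −0.80 ± 0.17 and an edgeR FDR of 0.0499, next to the threshold. That call was lost for 10 of the 18 rats when each was left out in turn, with an edgeR FDR of up to 0.139, and the Wnt3a call between Year 2 and Year 0.5 was lost without treated replicate 1 at Year 2 (edgeR FDR 0.0538). In the comparison of Year 2 with Year 1, Wnt3a and Wnt7a were near the threshold, with differences of −0.53 ± 0.12 and −0.86 ± 0.19 and an edgeR FDR of 0.0534 and 0.0521. Between Year 1 and Year 0.5 no Wnt gene and no other gene passed (0%).

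In control rats alone, 2 of 46 Wnt genes rose and 5 fell from Year 0.5 to Year 2, beside 2.65% and 4% of all genes. Rspo1 rose by 0.60 and Wnt6 by 1.70, and Wif1 fell by 0.68, Lef1 by 0.85, Wnt2 by 0.57, Fzd7 by 0.47 and Dkk3 by 0.35 on the log2 scale (edgeR FDR from 0.000821 to 0.0477). In MWCNT-treated rats 2 rose and 12 fell over the same interval, beside 6.65% and 6.87% of all genes. Sfrp1 and Dkk3 rose, by 1.15 and 0.32, and Notum fell by 1.06, Wnt5a by 0.85, Fzd8 by 0.85, Fzd4 by 0.74, Tcf7 by 0.65 and Wnt3a by 0.51. Wif1 and Lef1 fell with time in both treated and control rats, by 0.29 and 0.52 in the treated rats. From Year 0.5 to Year 1 no Wnt gene changed in either treatment, beside 0% of all genes in control rats and 0.101% in treated rats. These counts depend on single rats: without treated replicate 3 at Year 0.5, the number that fell in treated rats was 4, and the numbers without the other rats ran up to 14.

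Other genes of the pathway were read from 4 lists written from general knowledge. Of 26 tested genes that carry the signal through β-catenin, 7, 11 and 8 fell, beside 18.6%, 19.6% and 24% of all genes tested. In the same list 4, 2 and 3 rose, beside 20.2%, 21.6% and 25.2%. Ctnnb1, β-catenin itself, had log2 fold changes of 0.19, 0.17 and 0.28 (edgeR FDR 0.0383, 0.0892 and 0.00997). Tle3, a co-repressor of TCF factors, rose at each time point, by 0.59, 0.55 and 0.85, and Pygo1, a co-activator of β-catenin, fell at each, by 0.68, 0.54 and 1.56, both named after their values were seen.

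Of the other secreted regulators and receptors, 16, 15 and 16 were tested, 6, 8 and 8 fell and 1, 1 and 3 rose. Of all genes tested, 18.6%, 19.6% and 24% fell and 20.2%, 21.6% and 25.2% rose. Frzb, an Sfrp-like inhibitor, had 6.35, 7.96 and 9.41 TPM in control and 27.0, 32.4 and 24.6 TPM in treated rats at Year 2. All treated rats were above all control rats there, and Frzb rose by 0.74 ± 0.21, 1.38 ± 0.23 and 2.05 ± 0.15 over the 3 time points (edgeR FDR 0.0225, 0.00175 and 6.72e-06). Sostdc1, a further inhibitor, had 1.93, 1.06 and 1.83 TPM against 0.502, 0.252 and 0.136 TPM at Year 2, with log2 fold changes of −0.97 ± 0.40, −1.24 ± 0.41 and −2.20 ± 0.53 (edgeR FDR 0.0838, 0.0387 and 0.00774). Reck and Adgra2, co-receptors for Wnt7 ligands, fell at each time point, by 0.89, 0.97 and 0.97 and by 0.57, 0.61 and 0.94, and Tspan12, a partner of Fzd4, fell by 0.98, 0.62 and 1.17. These last 3 were named after their values were seen.

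In the planar polarity and calcium branch, 19, 19 and 20 genes were tested, 6 fell at each time point, and 4, 3 and 7 rose. Of all genes tested, 18.6%, 19.6% and 24% fell and 20.2%, 21.6% and 25.2% rose. Daam2, which links Dishevelled to the actin skeleton, had 7.96, 8.94 and 8.06 TPM in control and 23.4, 33.3 and 29.1 TPM in treated rats at Year 0.5, and 4.90, 6.46 and 8.07 TPM against 25.0, 27.6 and 28.4 TPM at Year 2. The groups lay far apart, with log2 fold changes of 1.93 ± 0.14, 1.89 ± 0.11 and 2.28 ± 0.14 (edgeR FDR 2.38e-05, 4.92e-06 and 3.18e-06). Camk2a, a calcium-dependent kinase, had 2.78, 2.19 and 2.61 TPM against 0.418, 0.0733 and 0.792 TPM at Year 2 and log2 fold changes of −1.70 ± 0.25, −1.32 ± 0.29 and −2.34 ± 0.57 (edgeR FDR 0.000978, 0.00699 and 0.00769).

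Genes often given as targets of β-catenin did not move one way. Of 17 tested, 8, 5 and 6 fell, beside 18.6%, 19.6% and 24% of all genes tested. Of these targets 7, 6 and 6 rose, beside 20.2%, 21.6% and 25.2%. Mmp7, a matrix protease, had at most 1 control rat with reads at each time point, and its treated rats had 5.86, 6.30 and 5.65 TPM at Year 0.5, 7.96, 10.6 and 8.69 TPM at Year 1 and 17.2, 14.9 and 12.4 TPM at Year 2. At Year 1, with no read in the control rats, it was at least 27.8-fold higher. Cd44, an adhesion receptor, rose by 1.11 ± 0.09, 1.01 ± 0.08 and 1.44 ± 0.10, and Ccn4, a matricellular protein, had log2 fold changes of 2.46 ± 0.59, 1.88 ± 0.71 and 3.94 ± 0.39 (edgeR FDR 0.0102, 0.0594 and 4.28e-05). Birc5, which acts in dividing cells, had log2 fold changes of 1.20 ± 0.28, 1.15 ± 0.35 and 0.81 ± 0.29 (edgeR FDR 0.00944, 0.0286 and 0.0408), and those of Tnfrsf19, a receptor of the tumor necrosis factor family, were −1.16 ± 0.36, −1.23 ± 0.24 and −0.83 ± 0.43 (edgeR FDR 0.0314, 0.00391 and 0.141). Macrophages are known to express Cd44, and the 6 macrophage markers rose at each time point as given above, and their part in the result for Cd44 was not tested.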

How the data were processed

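Lung RNA of 18 rats (3 control and 3 MWCNT-treated rats at each of Years 0.5, 1 and 2) had been sequenced. According to the study's methods the authors processed the reads in CLC Genomics Workbench, and the submitters' processing notes name Rnor_6.0 (rn6). The handling of multi-mapped reads, the strand setting and the annotation version are not given in the sources used here. The authors deposited unnormalized counts of reads for each gene, and TPM values that their software made from the same reads. The authors' fold-change and p-value columns and the deposited CPM and RPKM values were not used.

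The count tables were read into edgeR 4.0.16 (R 4.3.3). After the filterByExpr filter on low values (minimum count 10, minimum total count 15), libraries were scaled by TMM and genes tested by the quasi-likelihood test on the 6 rats of each time point, with Benjamini-Hochberg adjustment over all genes tested. The interaction of treatment with time, and time within each treatment, were tested in 1 model of all 18 rats. An SE is the size of a log2 fold change divided by the square root of its F value. The total count per rat was 13297643 to 21130757, and a gene without reads is given against a floor of 3 counts per library, which covers counting error only. No pair of replicates within a group agreed within sampling noise, and pairs across groups were not compared.

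Wnt genes were named with their values by a rule: DEGs of any time point, genes called for interaction over all time points, the most abundant gene of each role, Wif1, and genes without a read in any rat. Of the other pathway genes, DEGs of at least 2 time points were named. All other genes were named after their values were seen. The members and the lists (4 pathway lists and 13 lists of cell type markers) were chosen with earlier results of these data known. Listed genes that the tables do not hold under the listed symbol were not analysed here. Promoter sequences came from RefSeq on GRCr8, matched by symbol for 38 of 55 genes. The alternatives were other scalings, filters of low counts, DESeq2 1.42.0, limma 3.58.1 on log2(TPM + 1) and log2(TPM + 0.1), a replicate block, 1 model of all rats, and leaving out each rat. The test scripts were first tested on simulated data.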

Additional observations from a re-analysis of the deposited data

Results flagged for a closer look

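The effect of MWCNT treatment differed between time points for 3 Wnt genes, by the interaction term of the model of all 18 rats. For Dkk3 the log2 fold change at Year 2 was higher than that at Year 0.5 by 0.66 (edgeR FDR 0.0110). Dkk3 was lower in 3 of 3 treated rats than in any control rat at Year 0.5, and the groups overlapped at Year 2. Leaving out each of the 18 rats kept the call, with an edgeR FDR of 0.00319 to 0.0442. For Wnt3a the difference between Year 2 and Year 0.5 was −0.63 (edgeR FDR 0.0161), and all 3 treated rats were below all 3 control rats at both time points. The FDR ran from 0.00715 to 0.0538 when single rats were left out. For Tcf7 the difference between Year 2 and Year 1 was −0.80 (edgeR FDR 0.0499), with all treated rats below all control rats at both time points. Its FDR ran from 0.0318 to 0.139 when single rats were left out, and under 6 other settings from 0.00333 to 0.0681.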

How the results depend on the processing

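Over 1283 values of single Wnt genes under other settings, 1163 kept their direction and their side of the threshold, 80 were no longer past it, 29 passed it newly, and 11 changed sign, none of them past the threshold in either fit. These were Wif1 at Year 1, from 0.01 to −0.12 with library size alone, −0.025 with upper quartile scaling and −0.22 and −0.22 in the limma fits, Rspo1 at Year 2, from 0.11 to −0.060 with library size alone and −0.10 and −0.11 in the limma fits, and values without single rats. When each rat was left out, Wif1 at Year 1 ran from −0.038 to 0.069, with a negative sign without control replicate 2, control replicate 3 or treated replicate 1, and Dkk2 at Year 0.5 ran from −0.033 to 0.46, with a negative sign without treated replicate 2. The limits are the 3 rats per group and the filter on low counts, under which 9 of the 55 Wnt genes were not tested at any time point.

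With at least 10 counts required in every rat, 3 Wnt genes rose and 2 rose as DEGs at Year 0.5, 2 rose as DEGs at Year 2, 3 passed the interaction between Year 2 and Year 1, and 1 rose with time in control rats. Of all genes tested at Year 0.5 under that filter, 20.3% rose. Without a filter, 4 rose as DEGs at Year 1, 0 passed the interaction between Year 2 and Year 1 by edgeR, and 1 rose and 3 fell with time in control rats. With library size alone, which moved the median log2 fold change of all genes to −0.12, −0.13 and −0.18, 25 fell and 2 fell as DEGs at Year 1, 10 fell as DEGs at Year 2, and 3 fell with time in control rats. Of all genes tested at Year 1 under that scaling, 30.1% fell. With upper quartile scaling 2 passed the interaction between Year 2 and Year 1 and 3 fell with time in control rats. With DESeq2, 2 fell as DEGs at Year 0.5, 5 and 4 passed the interactions of Year 2 against Year 0.5 and Year 1, 1 rose in control rats from Year 0.5 to Year 2, and 1 fell from Year 0.5 to Year 1. In 1 model of all 18 rats, 2 fell as DEGs at Year 0.5. With only the rats of the groups compared, 0 passed the interaction between Year 2 and Year 1 by edgeR, and 0 rose and 2 fell with time in control rats. With limma on log2(TPM + 1) and log2(TPM + 0.1), 27 and 26 fell and 4 and 5 fell as DEGs at Year 1, and 4 and 4 rose and 8 and 10 fell as DEGs at Year 2. In these limma fits 37.8% and 37.4% of all genes fell at Year 1, beside 19.6% in the main fit. At Year 2, 15.2% of all genes rose in either limma fit, beside 25.2% in the main fit. Under these settings the shares of all genes were not taken for DEGs, interactions or changes with time. Those counts can therefore not be read as particular to the Wnt genes. The cause of the changes between settings was not tested.

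When each rat was left out in turn, the Wnt genes that rose numbered 5 to 6, 4 to 5 and 5 to 9 at the 3 time points, and those that fell 17 to 20, 10 to 15 and 16 to 19. Of all genes tested in these fits, 14.9% to 19.4%, 15.7% to 20% and 20.4% to 24.8% rose. Those that fell made up 11.1% to 16.5%, 13.8% to 17.8% and 18.6% to 23%. DEGs that rose numbered 4 to 4, 2 to 4 and 4 to 6, and DEGs that fell 0 to 2, 1 to 2 and 4 to 6. For DEGs, interactions and changes with time, the shares of all genes were taken in the main fit only. There 6.07%, 6.13% and 8.17% of all genes rose as DEGs and 3.03%, 4.09% and 8.22% fell. The interactions called 0 to 4 genes over all time points, 1 to 3 for Year 2 against Year 0.5, 0 to 5 for Year 2 against Year 1 and 0 to 0 for Year 1 against Year 0.5. In the main fit these interactions called 0.667%, 1.31%, 0.478% and 0% of all genes. Over time, 0 to 2 rose and 2 to 5 fell in control rats by Year 2 and 0 to 1 fell by Year 1, and 1 to 2 rose and 4 to 14 fell in treated rats by Year 2. In the main fit 2.65% of all genes rose and 4% fell in control rats by Year 2, and 0% changed by Year 1. In treated rats 6.65% rose and 6.87% fell by Year 2. The number that fell in treated rats was 4 without treated replicate 3 at Year 0.5, 5 without treated replicate 1 at Year 2, 6 without treated replicate 1 at Year 0.5, and 7 without treated replicate 2 or 3 at Year 2.

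Replicate numbers did not pair control with treated rats: over 9 pairs the mean correlation of same-numbered rats was 0.006 (−0.204 to 0.202), with 2 pairs over 0.1, and 4 of 9 treated rats correlated best with their own number. With the replicate block, 6, 5 and 7 Wnt genes rose and 20, 16 and 18 fell. Of all genes tested under the block, 18.9%, 19.8% and 22.7% rose and 17.6%, 19% and 21% fell. Of the named calls, those of Wnt3a and Sfrp1 at Year 0.5 (edgeR FDR 0.0566 and 0.0709) and Lef1 at Year 2 (0.0696) were lost under the block, and Rspo1 at Year 0.5 passed (0.0409).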
